A study of Arabidopsis thaliana with 8 samples.

Results

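Ribosome footprints were set against RNA, gene by gene, in mock-treated Arabidopsis thaliana leaves, to ask how translating ribosomes are spread over the mRNAs of a leaf that has not met the immune peptide elf18. The comparison used the 4 mock libraries of the 8 in the series, chosen by their labels: 2 footprint libraries and 2 RNA libraries, made from the lysates numbered 2 and 3, which are replicates 1 and 2 below. All leaves came from 3-week-old Col-0 plants that carry the transgene 35S:uORFsTBF1-LUC, a luciferase reporter behind the leader of the immune transcription factor TBF1, driven by the 35S promoter. The mock leaves had been infiltrated with 10 mM MgCl2, and the remaining 4 libraries came from leaves infiltrated with 10 µM elf18. About 24 plants gave 2 leaves apiece to every lysate. One part of the lysate went to footprints and another to RNA, so the libraries of a group are separate lysates (n = 2). The p-values rest on the spread between these 2 pools, drawn toward the spread of other genes of like abundance. This shared part had 6.59 degrees of freedom, against 2 residual ones of the gene itself. The hour of harvest after infiltration is not stated in the labels.

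Ribosome profiling sequences the short stretches of mRNA that a ribosome shields from nuclease, and RNA-seq of the same lysate counts the mRNA itself. The ratio of the 2 shares says whether a coding sequence holds more or fewer ribosomes, for its mRNA and its length, than the average gene does. It says nothing about the absolute rate of protein synthesis, because a ribosome that moves slowly and one that is followed closely by others both add footprints. In a leaf much of the nuclear mRNA encodes photosynthetic proteins, which are made on cytosolic ribosomes and imported into the plastid.

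Values are counts over coding sequences, shown as CPM, the count scaled to a library of fixed size. The footprint to RNA ratio is a log2 value with its standard error (SE), and 0 is the average gene. A scaling of counts by gene length would cancel in this ratio, but other effects of length were not tested. Coding-sequence counts totalled 4752563 and 6717946 in the footprint libraries, and 12202536 and 6409393 in the RNA libraries. The footprint library of replicate 1 stood apart, since it had at least 1 count in 12935 genes, against 17795 in that of replicate 2 and 16540 and 16767 in the RNA libraries. In this library 1697 genes were at 0 that had 20 or more footprints in replicate 2, up to 265, whereas 48 genes showed the reverse. The correlation of log2 CPM across genes, which are not independent replicates, was 0.816 between the footprint libraries and 0.909 between the RNA libraries. Between footprints and RNA of one lysate it was 0.748 in replicate 1 and 0.897 in replicate 2. The leaf label was checked with marker lists: antenna genes took 4.95% and 4.67% of the footprints of replicates 1 and 2, against 9.17% and 8.63% of the RNA, and 3 root hair markers together took 0% of the footprints of both replicates, against 0.000082% and 0% of the RNA.

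Of 15169 genes tested by edgeR's quasi-likelihood method at a Benjamini-Hochberg adjusted p under 0.05, 271 (1.79%) held more footprints than their RNA predicts for the average gene and 293 (1.93%) held fewer, 3.72% in all. The higher genes had log2 ratios between 0.44 and 4.55 and took 14.7% and 14.0% of the footprints of replicates 1 and 2, against 6.8% and 7.0% of the RNA. The lower genes had log2 ratios between -3.30 and -0.32 and took 18.5% and 18.3% of the footprints, against 32.8% and 32.3% of the RNA. A change of at least 2-fold was fitted for 170 of the higher and 198 of the lower genes. Over all tested genes the median log2 ratio was -0.115, with the 25th and 75th percentiles at -0.85 and 0.52. In 49.6% of the tested genes (7524) the footprint and RNA values did not overlap, and all 564 called genes were among these. With the lysate as a block, 576 genes were higher and 680 lower. Leaving out RNA replicate 1 gave 128 higher and 163 lower, leaving out RNA replicate 2 gave 151 and 193, leaving out footprint replicate 1 gave 780 and 869, and leaving out footprint replicate 2 gave 2008 and 3939. None of the 564 called genes was called in the opposite direction in any of these fits.

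**Figure D1:**
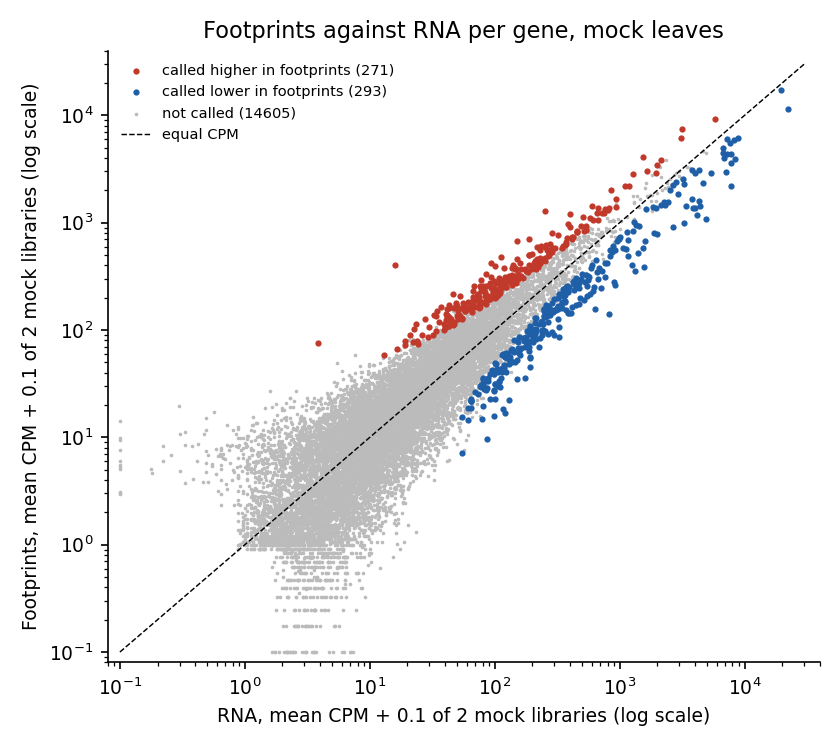
Mean footprint CPM (vertical) against mean RNA CPM (horizontal) of the 2 mock libraries of each kind, on log axes with 0.1 added, 1 point per tested gene. The 271 genes called higher in footprints lie above the dashed line of equal CPM and the 293 called lower lie below it, and no gene with a mean under 30 CPM was called.

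The calls lay among the genes with many counts. None of the 10100 genes with a mean under 30 CPM over the 4 libraries was called, against 3.53% of the 3397 genes from 30 to 100 CPM, 20.5% of the 1193 genes from 100 to 300 CPM and 41.8% of the 479 genes at 300 CPM or more. The log2 ratios of the 2 lysates correlated across genes with r = 0.181 over all tested genes, 0.80 from 100 to 300 CPM and 0.935 at 300 CPM or more. The median difference between the lysates' log2 ratios was 3.87 under 3 CPM and 0.182 at 300 CPM or more. Among the 1672 genes of at least 100 CPM the calls were split evenly, with 222 higher and 222 lower. Counts of called list members below are to be read beside these shares by abundance. Of the tested genes, 10547 passed the count filter in both kinds of library, 3181 in the RNA libraries alone and 481 in the footprint libraries alone, and 1 of the genes that passed in one kind alone was called. The medians of lists take in such genes, which had to be high in the kind of library that let them through.

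**Figure D2:**
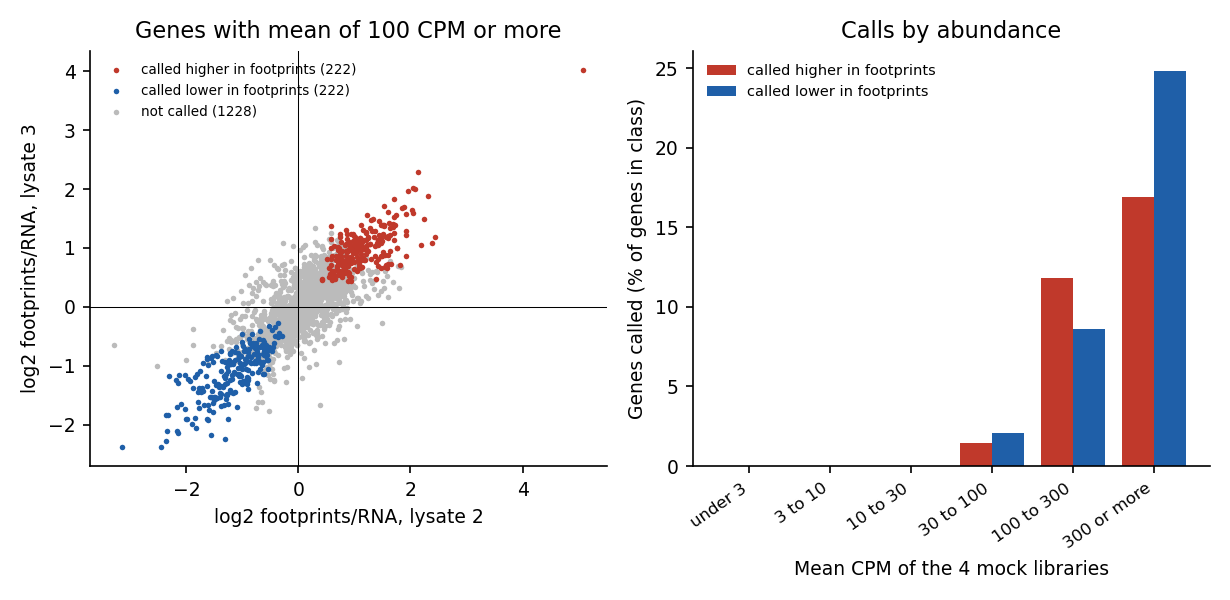
Left, log2 footprint to RNA ratio of lysate 2 (horizontal) and lysate 3 (vertical) for the 1672 genes at 100 CPM or more on average. Right, the share of genes called higher and lower in footprints by mean CPM of the 4 mock libraries; no bar stands under 30 CPM.

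Most light-harvesting antenna genes held fewer footprints than their RNA. Antenna proteins bind the chlorophyll that gathers light for the photosystems. Of 18 antenna genes, all tested, 15 were lower and none was higher, with a median log2 ratio of -1.11, against -0.115 over all tested genes. All 18 averaged 100 CPM or more, a level at which 222 of 1672 genes were lower, and 1.93% of all tested genes were lower. LHCB1.3, a gene of the major antenna of photosystem II, had 1039 and 1122 CPM in footprints, against 4900 and 4882 CPM in RNA. Both footprint libraries lay far below both RNA libraries, and the log2 ratio was -2.31 (SE 0.08, 4.97-fold lower; Benjamini-Hochberg adjusted p = 1.22e-05 by edgeR's quasi-likelihood test). LHCB1.5 had a log2 ratio of -1.94 (SE 0.07) and LHCB1.4 of -1.76 (SE 0.12). The LHCB1 genes are near-identical copies and the labels do not say how reads that match several copies were counted. The split between them is thus uncertain, and so is their sum. Summed over the 5 copies, footprints were 6282 and 6030 CPM, against 21570 and 20750 CPM of RNA, a log2 ratio of -1.78 in each lysate. At the other end, LHCB4.3 had a log2 ratio of 0.07 and was not called. Without either RNA library 13 antenna genes were lower, and without either footprint library 17 were.

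Most photosystem and electron transport genes were lower as well. Of 32 tested, 25 were lower and 1 was higher, with a median log2 ratio of -0.749. At 100 CPM or more, where all 32 lay, 222 of 1672 genes were lower and 222 higher. PSBX, a small subunit of photosystem II, had 1299 and 1083 CPM in footprints, against 4244 and 4070 CPM in RNA. The libraries of the 2 kinds did not overlap, and the log2 ratio was -1.94 (SE 0.11, adjusted p = 7.77e-05 by edgeR's quasi-likelihood test). PSBW of photosystem II followed at -1.68 (SE 0.08) and PSAE-2 of photosystem I at -1.66 (SE 0.14). FNR2, a leaf ferredoxin-NADP reductase that hands electrons on to NADP, went the other way. It had 609 and 655 CPM in footprints, against 361 and 388 CPM in RNA, a log2 ratio of 0.62 (SE 0.13, edgeR's quasi-likelihood adjusted p = 0.035), and it was not called without either RNA library. The count of lower genes was 22 without either RNA library, 30 without footprint replicate 1 and 31 without footprint replicate 2.

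The Calvin cycle split by gene. Rubisco, which fixes CO2, is assembled from a plastid-encoded large subunit and nuclear-encoded small subunits. All 4 small-subunit genes were lower. RBCS1A, the copy with the most RNA counts, had 11580 and 11200 CPM in footprints, against 22350 and 22620 CPM in RNA, a log2 ratio of -1.12 (SE 0.05, 2.17-fold lower, edgeR's quasi-likelihood adjusted p = 4.15e-05). RBCS2B had 90.7 and 191 CPM in footprints, against 741 and 890 CPM in RNA, and with -2.67 (SE 0.30) the lowest ratio of the list. RBCS3B and RBCS1B had log2 ratios of -1.86 (SE 0.11) and -1.84 (SE 0.20). These are near-identical copies too, so their values and their sum are uncertain in the same way. The sum was 12930 and 12690 CPM in footprints, against 27040 and 27980 CPM in RNA, log2 ratios of -1.06 and -1.14 in the 2 lysates. RCA, the activase that reopens Rubisco, was lower by little, with 16170 and 18110 CPM in footprints, against 19260 and 19770 CPM in RNA (log2 ratio -0.32, SE 0.06). TKL1, a transketolase of the cycle, was higher, with 4293 and 3435 CPM in footprints, against 2051 and 2274 CPM in RNA (log2 ratio 0.70, SE 0.12). Over the 20 genes 10 were lower and 1 was higher, with a median of -0.383. All 20 averaged 100 CPM or more, where 222 of 1672 genes were lower and 222 higher. Without either RNA library 7 were lower, and without either footprint library 15 were. RPE, SBPASE and GAPA, an epimerase, a bisphosphatase and a dehydrogenase subunit of the cycle, had log2 ratios of 0.00, -0.07 and -0.13 and were not called. Over the antenna, photosystem and Calvin cycle genes together, 50 of 70 were lower, against 1.93% of all tested genes. Their share of the library was 17.1% and 16.6% in footprints, against 27.0% and 26.7% in RNA.

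**Figure D3:**
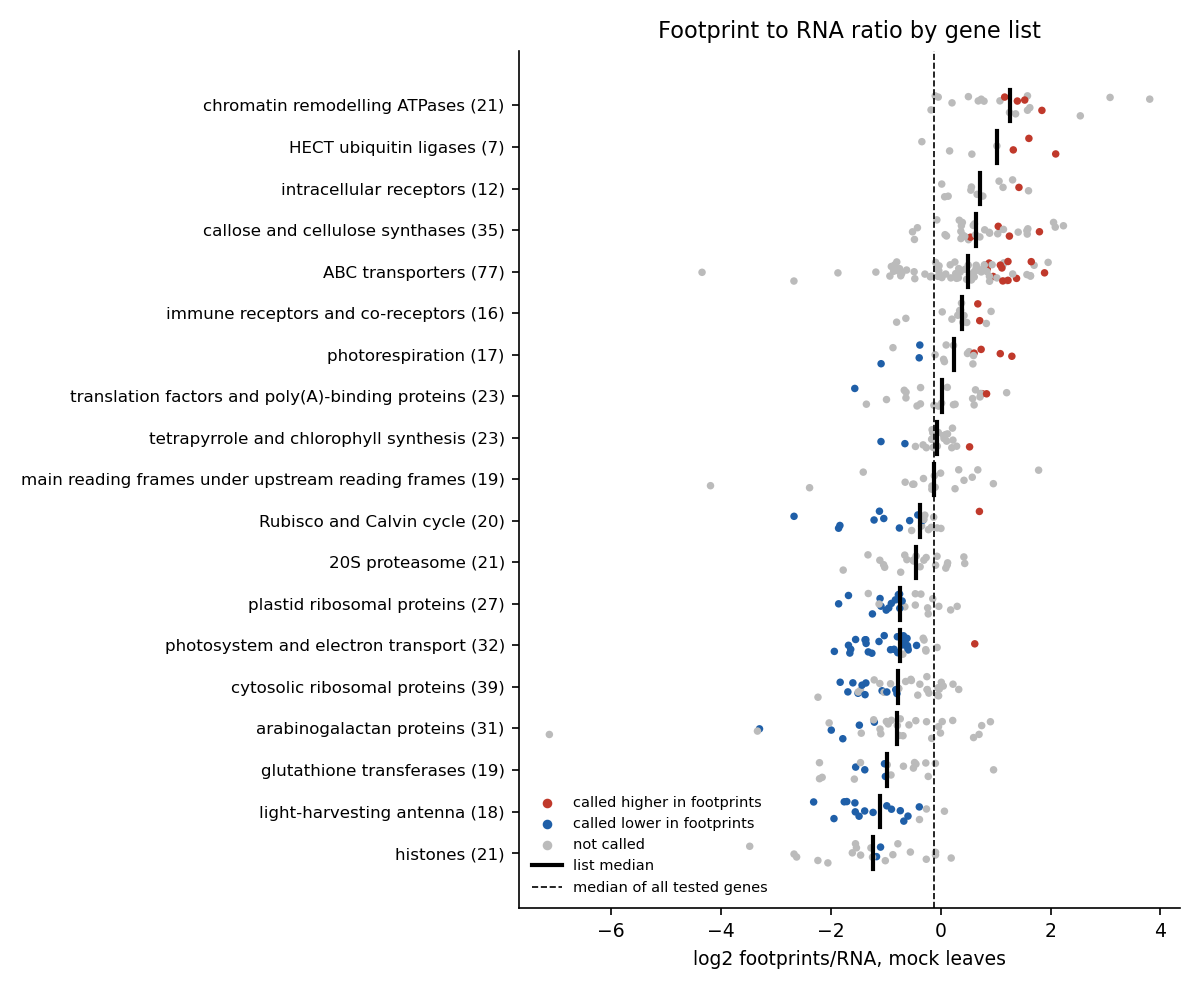
Log2 footprint to RNA ratio in mock leaves of each tested member (points) of 19 gene lists, with the number of tested members in brackets; thick bars are list medians and the dashed line is the median of all tested genes. The lists run from chromatin remodelling ATPases (median 1.25) at the top to histones (median -1.24) at the bottom. Of the histones, 7 did not pass the count filter in both kinds of library.

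The photorespiratory pathway and chlorophyll synthesis, chosen as lists after their values had been seen, showed members in both directions. Photorespiration recovers carbon from the oxygenation product of Rubisco. Of its 17 tested genes 4 were higher and 3 were lower, against 1.79% and 1.93% of all tested genes, with a median of 0.23. All 7 were among the 15 members at 100 CPM or more, where 222 of 1672 genes were higher and 222 lower. GLDP1, the P protein of the mitochondrial glycine decarboxylase, had 7504 and 7277 CPM in footprints, against 3128 and 3221 CPM in RNA, a log2 ratio of 1.08 (SE 0.07, edgeR's quasi-likelihood adjusted p = 0.00013). GDCH, the small H protein of the same complex, had 141 and 157 CPM in footprints, against 299 and 276 CPM in RNA, a log2 ratio of -1.09 (SE 0.17, adjusted p = 0.011). The 2 genes of this complex thus lay on opposite sides in both lysates. GLU1, the ferredoxin-dependent glutamate synthase that reassimilates ammonium, had 4325 and 3929 CPM in footprints, against 1464 and 1601 CPM in RNA, a log2 ratio of 1.29 (SE 0.09). GLDP2, a second P protein, and DiT1, a plastid dicarboxylate transporter, were higher at 0.74 (SE 0.10) and 0.61. The aminotransferases AGT and GGT1 were lower at -0.39 and -0.38 (SE 0.08 each), and neither was called without either RNA library; GDCH was not called without RNA replicate 1. Among 23 genes of tetrapyrrole and chlorophyll synthesis 1 was higher and 2 were lower. All 3 were among the 19 members at 100 CPM or more, a level at which 222 of 1672 genes were higher and 222 lower. GUN5, the large subunit of magnesium chelatase, had 9189 and 9151 CPM in footprints, against 5799 and 5802 CPM in RNA (log2 ratio 0.53, SE 0.06, edgeR's quasi-likelihood adjusted p = 0.00273). CHLM, the methyltransferase that acts next, was lower at -1.09 (SE 0.14), and CRD1, of the cyclase step after that, at -0.65 (SE 0.08).

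The ribosomal protein genes that were called with all 4 libraries were lower. Cytosolic and plastid ribosomes are built from different sets of nuclear genes. Of 39 cytosolic ribosomal protein genes 11 were lower and none was higher, with a median of -0.769 and 35 members below 0. Over all tested genes 1.93% were lower and 1.79% higher. At 100 CPM or more, where 222 of 1672 genes were lower, 9 of 18 cytosolic and 13 of 27 plastid members were called. RPL16B had 33.7 and 32.6 CPM in footprints, against 104 and 110 CPM in RNA, a log2 ratio of -1.83 (SE 0.26, edgeR's quasi-likelihood adjusted p = 0.00836). RPL27AB and BBC1 were lower at -1.69 (SE 0.36) and -1.60 (SE 0.36), and RPL27AB was not called without either RNA library. RACK1A, a scaffold on the small subunit, had a log2 ratio of -0.03 and was not called. Of 27 plastid ribosomal protein genes 13 were lower and none was higher, with a median of -0.746. RPL12-A, of the ribosomal stalk, had 76.6 and 105 CPM in footprints, against 286 and 314 CPM in RNA, a log2 ratio of -1.86 (SE 0.20, adjusted p = 0.00206 by edgeR's quasi-likelihood test). PSRP6 and RPL12-C followed at -1.68 (SE 0.18) and -1.24 (SE 0.18). Without RNA replicates 1 and 2 in turn, 6 and 5 cytosolic genes and 7 and 7 plastid genes were lower, and without footprint replicates 1 and 2, 18 and 22 cytosolic genes and 21 and 22 plastid genes. Without footprint replicate 2, 1 cytosolic and 2 plastid genes were higher.

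The translation factors were split. Of 23 tested factors and poly(A)-binding proteins 2 were higher and 1 was lower, against 1.79% and 1.93% of all tested genes, with a median of 0.02. LOS1, elongation factor eEF2, had 2404 and 1958 CPM in footprints, against 1176 and 1181 CPM in RNA, a log2 ratio of 0.75 (SE 0.12, edgeR's quasi-likelihood adjusted p = 0.0128). EIF3C, a subunit of initiation factor eIF3, was higher at 0.83 (SE 0.18), though not without either RNA library. FBR12, the small factor eIF5A, had 119 and 233 CPM in footprints, against 479 and 467 CPM in RNA, a log2 ratio of -1.56 (SE 0.27, adjusted p = 0.0175). EIF4A1 and PAB2, an initiation helicase and a poly(A)-binding protein, had log2 ratios of 0.23 and -0.37 and were not called. The called LOS1, EIF3C and FBR12 averaged 1680, 331 and 324 CPM, and 41.8% of genes at 300 CPM or more were called.

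Besides RBCS2B and LHCB1.3, the 12 lowest ratios among called genes included those of AGP12, RTFL17, OEP6 and a phytocystatin gene. AGP12, an arabinogalactan peptide of the cell surface, had 7.15 and 12.1 CPM in footprints, against 97.3 and 75.9 CPM in RNA. The log2 ratio was -3.30 (SE 0.39, 9.85-fold lower, edgeR's quasi-likelihood adjusted p = 0.00329). RTFL17, of the ROTUNDIFOLIA-like peptides, had 7.79 and 6.40 CPM in footprints, against 59.0 and 50.4 CPM in RNA, a log2 ratio of -3.08 (SE 0.46), and it was not called without RNA replicate 1. OEP6, a plastid outer envelope protein, had 7.36 and 26.5 CPM in footprints, against 119 and 124 CPM in RNA (log2 ratio -2.97, SE 0.51). AT4G16500, the phytocystatin CYS4, had a log2 ratio of -2.23 (SE 0.44). Others among the 12 lowest were AT4G37830, AT2G43460, AT2G23090, AT2G20820, AT4G28240 and AT5G47700, with log2 ratios between -2.77 and -2.29 and no symbol in the locus table; AT5G47700 was not called without RNA replicate 1. Arabinogalactan proteins as a family had 5 lower and none higher of 31 tested, against 1.93% and 1.79% of all tested genes. Among them AGP20 was at -1.99 (SE 0.37) and AGP21 at -1.78 (SE 0.28), the second not called without RNA replicate 1. The family's count was 3 without RNA replicate 1, 5 without RNA replicate 2, and 9 and 15 without footprint replicates 1 and 2. Of the list of small secreted defence proteins and metallothioneins 8 of 13 were tested, and 4 were lower, against 1.93% of all tested genes. They were the metallothioneins MT3, MT2B and MT2A, which bind metals, and the lipid transfer protein LTP1 at -0.81 (SE 0.18). MT3 had 259 and 265 CPM in footprints, against 939 and 893 CPM in RNA, a log2 ratio of -1.94 (SE 0.12, adjusted p = 0.000116). MT2B and MT2A were at -1.75 (SE 0.20) and -1.47 (SE 0.30), and MT2A was not called without RNA replicate 1. MT1A, which passed the filter through RNA alone, had a log2 ratio of -0.68 (SE 1.18) and was not called, and MT1C was not tested. The list's count was 2 without RNA replicate 1, 3 without RNA replicate 2 and 5 without either footprint library.

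A few members each of further families were lower, against 1.93% of all tested genes. Of 19 glutathione transferases, which conjugate glutathione to toxic compounds, 4 were lower and none was higher, with GSTF6 at -1.55 (SE 0.32), GSTU20 at -1.38 (SE 0.28) and GSTF10 at -1.02 (SE 0.17), and 2 were lower without either RNA library. Of 30 ubiquitin-conjugating enzymes 3 were lower, namely UBC28 at -1.48, UBC8 at -1.30 and UBC9 at -1.23, and 1 without either RNA library. Of 21 tested histone genes 2 were lower, both encoding H3.3. The median of the 21 was -1.24, but 7 of them did not pass the count filter in both kinds of library. The H3.3 genes AT4G40030 and AT4G40040 had log2 ratios of -1.17 and -1.10 (SE 0.22 each), are near-identical copies, and were not called without RNA replicate 1. Without footprint replicates 1 and 2, the counts of lower genes were 7 and 9 glutathione transferases, 3 and 10 ubiquitin-conjugating enzymes, and 8 and 12 histone genes. The dehydrins ERD14 and ERD10, which protect cells in drought and cold, were lower at -1.42 (SE 0.17) and -0.90 (SE 0.14). They were the 2 called of 9 cold and dehydration proteins tested. Of that list DESeq2 called 6 lower and 1 higher, and limma voom 5 lower and 1 higher. None of the 21 subunits of the 20S proteasome core was called by edgeR's quasi-likelihood test, with 4 at an unadjusted p under 0.05, 4 called by DESeq2 and 2 by limma voom, and their median was -0.449. PAC1, the most abundant subunit, averaged 111 CPM, and 3.72% of all tested genes were called.

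Genes of ubiquitin ligases and their regulators, of glutamate synthesis and of auxin transport were among the 12 highest ratios. BIG, a protein needed for auxin transport, had 1305 and 1258 CPM in footprints, against 274 and 232 CPM in RNA. Both footprint libraries lay far above both RNA libraries, and the log2 ratio was 2.204 (SE 0.13, 4.61-fold higher, edgeR's quasi-likelihood adjusted p = 9.44e-05). UPL1, a HECT-type ubiquitin ligase, had 229 and 201 CPM in footprints, against 42.5 and 49.5 CPM in RNA, a log2 ratio of 2.09 (SE 0.22). GLT1, the NADH-dependent glutamate synthase, had 733 and 620 CPM in footprints, against 164 and 138 CPM in RNA, a log2 ratio of 2.03 (SE 0.17, adjusted p = 0.000475). DCAF1, an adaptor of CUL4 ubiquitin ligases, was at 2.06 (SE 0.31), and CAND1, a regulator of cullin assembly, at 2.00 (SE 0.36). AT1G67120, the ribosome assembly ATPase midasin, was at 2.03 (SE 0.30). AT4G17140, AT1G02080, AT2G25730 and AT1G22060, with log2 ratios between 1.99 and 2.15, had no symbol in the locus table, and AT2G25730 was not called without either RNA library. Protein and gene lengths were not measured here, as no sequence of the genome build was used.

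A pair of genes without a symbol stood above all other called genes. AT1G72645 had 455 and 354 CPM in footprints, against 12.3 and 19.5 CPM in RNA, a log2 ratio of 4.55 (SE 0.28, 23.5-fold higher, edgeR's quasi-likelihood adjusted p = 0.000109). AT4G05631 had 82.9 and 68.5 CPM in footprints, against 6.48 and 1.09 CPM in RNA, a log2 ratio of 4.12 (SE 0.71). It is the called gene that passed the count filter through the footprint libraries alone, where it is high, so that its ratio had to be high and counts for no more than these values. In the RefSeq locus table a small nucleolar RNA gene lies on the same stretch as AT1G72645. Of the 47 tested genes that share a stretch with such a gene in that table, 2 were higher and 5 lower, with a median of -0.73. Whether fragments of the nucleolar RNA were counted at AT1G72645 was not tested.

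**Figure D4:**
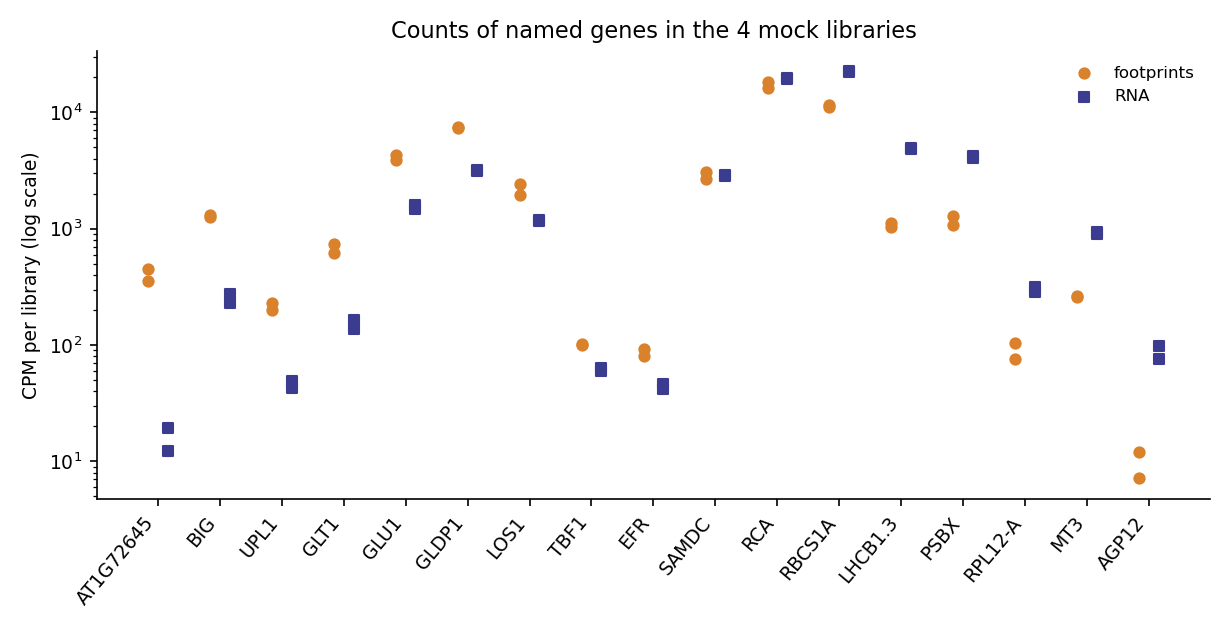
CPM of 17 genes in each mock library on a log axis, footprints (circles, left) and RNA (squares, right). From AT1G72645 to EFR the footprint values lie above the RNA values, those of SAMDC overlap, and from RCA to AGP12 the footprint values lie below.

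A further 4 families, listed after their values had been seen, had higher genes and no lower ones with all 4 libraries. Over all tested genes 1.79% were higher and 1.93% lower. At 100 CPM or more 222 of 1672 genes were higher. At that level 3 of 3 HECT ligases and 4 of 4 remodelling ATPases were called. So were 4 of 13 callose and cellulose synthases and 6 of 15 ABC transporters. HECT ubiquitin ligases had 3 of 7 higher: UPL1, UPL2 at 1.60 (SE 0.19) and KAK, the ligase UPL3 of trichome development, at 1.32 (SE 0.14). Of 21 tested chromatin remodelling ATPases 4 were higher and none was lower, with a median of 1.25. PKL, a CHD3 remodeller that holds back embryonic traits, had 232 and 108 CPM in footprints, against 40.7 and 45.7 CPM in RNA (log2 ratio 1.84, SE 0.36). BRM and SYD, of the SWI/SNF class, were at 1.53 (SE 0.17) and 1.395 (SE 0.17). Of 35 callose and cellulose synthases 4 were higher and none was lower, with a median of 0.634. GSL12 had 266 and 251 CPM in footprints, against 65.7 and 69.6 CPM in RNA (log2 ratio 1.797, SE 0.19, edgeR's quasi-likelihood adjusted p = 0.00177). GSL05, which lays down callose at sites of fungal attack, was at 1.05 (SE 0.15). Of 77 ABC transporters 11 were higher and none was lower, among them ABCC14 at 1.65 (SE 0.19), ABCC2 at 1.38 (SE 0.28) and PEN3, which exports defence compounds, at 0.85 (SE 0.07). Without either RNA library 4 ABC transporters were higher, and without footprint replicates 1 and 2 the counts were 21 and 24. For the callose and cellulose synthases they were 3 without either RNA library and 10 and 15 without footprint replicates 1 and 2, and for the remodelling ATPases 3 and 4, and 7 and 14. Without footprint replicate 2, 10 ABC transporters, 3 callose and cellulose synthases, 2 remodelling ATPases and 1 HECT ligase were lower, and without footprint replicate 1, 2 ABC transporters were. With the spread of all 8 libraries 4 ABC transporters were higher, with a mean of at least 50 counts 5, and with upper quartile factors 6. The vacuolar proton pump spanned both directions within one complex. VHA-A, its catalytic subunit, had 488 and 502 CPM in footprints, against 273 and 275 CPM in RNA (log2 ratio 0.72, SE 0.13). AVA-P2, its proteolipid subunit in the membrane, had 22.9 and 36.8 CPM in footprints, against 117 and 96.1 CPM in RNA (log2 ratio -1.97, SE 0.32). Neither was called without RNA replicate 1.

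Of the immune receptors 3 were called, all of them higher in footprints, where 1.79% of all tested genes were higher. At 100 CPM or more, where 222 of 1672 genes were higher, 2 of 5 surface and 1 of 4 intracellular receptors were called. Cell surface receptors sense microbial peptides such as elf18, and intracellular receptors sense pathogen effectors. Of 16 surface receptors and co-receptors 2 were higher and none was lower, with a median of 0.39 and 14 members above 0. SOBIR1, a co-receptor of receptor-like proteins, had 993 and 878 CPM in footprints, against 548 and 520 CPM in RNA (log2 ratio 0.67, SE 0.12, edgeR's quasi-likelihood adjusted p = 0.0225). FER, the receptor kinase FERONIA, had 721 and 926 CPM in footprints, against 442 and 473 CPM in RNA (log2 ratio 0.71, SE 0.14, adjusted p = 0.0317). Neither was called without either RNA library, and DESeq2 called 1 surface receptor lower, as 2 were without footprint replicate 2. EFR, the receptor of elf18, had 92.8 and 80.2 CPM in footprints, against 46.7 and 41.8 CPM in RNA. Its libraries did not overlap, but the log2 ratio of 0.83 (SE 0.28) was not called (adjusted p = 0.18). BIK1, a kinase downstream of these receptors, and BKK1, a co-receptor, had log2 ratios of -0.80 and -0.64 and were not called. Of 12 intracellular receptors 1 was higher, with all 12 above 0 and a median of 0.714. RPM1, which guards RIN4 against bacterial effectors, had 271 and 161 CPM in footprints, against 82.5 and 64.0 CPM in RNA (log2 ratio 1.42, SE 0.29, adjusted p = 0.0324). With the filter at a mean of at least 50 counts RPM1 was not called (edgeR's quasi-likelihood adjusted p = 0.062) and no intracellular receptor was. CRK11, a cysteine-rich receptor-like kinase, was higher at 0.96 (SE 0.20) among 30 tested members of its family, and not without either RNA library. CPK28, which sets the level of BIK1, had a log2 ratio of 0.51 (SE 0.12) and was not called (adjusted p = 0.0522).

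Genes whose leaders hold upstream reading frames were tested over their main coding sequence, and none was called. Ribosomes that translate such an upstream frame often do not reach the main one. Of 19 tested, edgeR's quasi-likelihood test called 0, with 2 at an unadjusted p under 0.05, 2 called by DESeq2 and 0 by limma voom, and with a median of -0.116, against -0.115 over all tested genes. As 3.72% of all tested genes were called, 0 of 19 is near that share. Of the 19, 4 averaged 100 CPM or more, and 3 did not pass the count filter in both kinds of library. Whether upstream frames moved the ratio was not tested. TBF1 had 101 and 101 CPM in footprints, against 63.2 and 60.4 CPM in RNA. The 2 kinds of library did not overlap, and the log2 ratio of 0.57 (SE 0.24) was not called (edgeR's quasi-likelihood adjusted p = 0.319). SAMDC, the polyamine enzyme S-adenosylmethionine decarboxylase, had 2692 and 3083 CPM in footprints, against 2871 and 2822 CPM in RNA, a log2 ratio of -0.12 (SE 0.09). Here the libraries overlapped. Footprints in the leaders lie outside the coding-sequence counts, and the footprint value was blank for 62 loci, 49 of them with mock RNA counts, which were not tested.

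Transcription factors had few calls. None of 36 WRKY, 36 MYB and 29 NAC transcription factors was called by edgeR's quasi-likelihood test, with medians of -0.128, -0.0156 and -0.147. Over all tested genes 3.72% were called, and none with a mean under 30 CPM. WRKY18, MYB73 and NAC062, the most abundant tested of each family, averaged 421, 58.7 and 93.1 CPM. The lack of calls thus says little about MYB and NAC factors, which had few counts. At an unadjusted p under 0.05 there were 4 WRKY, 0 MYB and 0 NAC factors. DESeq2 called 3, 0 and 1 of them, and limma voom 2, 0 and 0. Without footprint replicate 2 the counts were 5 higher and 9 lower WRKY, 1 and 5 MYB, and 2 and 7 NAC factors. WRKY18 had 455 and 469 CPM in footprints, against 393 and 368 CPM in RNA (log2 ratio 0.14, SE 0.13). Of 21 B-box factors and 17 ERF factors tested, 1 each was called. BBX28, a B-box factor of light signalling, was lower at -1.17 (SE 0.22), and ERF4, a repressor of ethylene responses, at -0.72 (SE 0.15), and neither was called without either RNA library. None of the 10 tested clock genes was called by edgeR's quasi-likelihood test (1 at an unadjusted p under 0.05, 1 by DESeq2, 0 by limma voom), with LHY at 0.17 (SE 0.17), and at -0.02 without footprint replicate 2. Of 82 cytochromes P450, 1 was higher, namely CYP97A3 of carotenoid synthesis, at 0.98 (SE 0.19), and it was not called without either RNA library. ACT2, an actin often used as a reference gene, was lower at -0.63 (SE 0.11), though not without either RNA library. ACT2 was the 1 called of 21 tubulins and actins tested, a list with a median of 0.242 and 12 members above 0. None of the guard cell (6), epidermis (4) and vascular (8) markers tested was called by edgeR's quasi-likelihood test, with 0, 0 and 1 at an unadjusted p under 0.05, 2 vascular ones called by DESeq2 and none by limma voom. KAT1, the most abundant guard cell marker tested, averaged 24.3 CPM, a level at which no gene was called. Among the remaining families edgeR's quasi-likelihood test called none of 35 glycosyltransferases, 15 Aux/IAA repressors, 28 expansins and xyloglucan hydrolases, 16 aquaporins, 17 calcium-dependent kinases, 16 heat shock proteins, 19 splicing and glycine-rich RNA-binding proteins and 2 upstream peptide loci. Their medians lay between -0.527 for the RNA-binding proteins and 0.524 for the heat shock proteins. At an unadjusted p under 0.05 there were 0, 2, 3, 1, 2, 3, 3 and 0, DESeq2 called 1, 2, 3, 1, 3, 3, 3 and 0, and limma voom 0, 1, 2, 1, 2, 2, 1 and 0, in the same order.

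RNA counts over exons allowed a further measure that the ratio did not use directly, the share of a gene's exon counts outside its coding sequence. This share was lower in genes with a high ratio. Its median was 6.79% and 7.48% in RNA replicates 1 and 2 for the higher genes, 15.3% and 15.2% for the lower genes, and 11.0% and 11.7% for genes not called. Among genes of at least 10 CPM with a share under 10%, 181 were higher and 78 lower. From 10% to 20% the counts were 66 and 105, from 20% to 30% they were 12 and 59, and from 30% to 40% they were 6 and 30. The median log2 ratio was 0.175, 0.033, -0.0963 and -0.229 in these classes, -0.125 from 40% to 60% and 0.101 from 60% up. The coding-sequence counts of RNA enter both measures, so no test was made. LHCB1.3 had 80.8% and 80.0% of its RNA counts outside the coding sequence and RBCS2B 77.3% and 73.5%, whereas BIG had 0.623% and 0.536%. LHCB1.3 and RBCS2B belong to sets of near-identical copies, and whether reads that match several copies moved their shares was not tested. PSBX and PSBW, which were lower too, had smaller shares, at 7.28% and 8.66% for PSBX and 11.8% and 13.2% for PSBW.

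The elf18 leaves, which share no library with the mock leaves, repeated the directions. Of 14274 genes tested there, 189 (1.32%) were higher and 249 (1.74%) lower, 3.07% in all. Without elf18 footprint replicates 1 and 2 in turn the counts were 50 higher and 136 lower, and 54 and 128, and without elf18 RNA replicates 1 and 2, 1023 and 630, and 863 and 549. All 564 genes called in mock were tested with elf18, and 563 had the same sign, against 66.4% of the 13693 genes tested in both. The 2 sets differ in abundance, since no called gene had a mean under 30 CPM, as 10100 of the 15169 genes tested in mock did. Of the 564 genes 291 were also called with elf18 (51.6% of the mock calls and 66.4% of the 438 elf18 calls), 124 higher and 167 lower, and none was called in the opposite direction. The median log2 ratio of the higher genes was 1.03 with elf18 and 1.12 in mock, and that of the lower genes was -1.25 with elf18 and -1.23 in mock. BIG had a log2 ratio of 2.207 with elf18 and 2.204 in mock, and PSBX of -2.17 with elf18 and -1.94 in mock.

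The ratio itself was then compared between treatments in one fit over all 8 libraries. With Benjamini-Hochberg adjusted p-values from edgeR's quasi-likelihood test, 0 of 16177 genes (0%) differed, with 725 genes at an unadjusted p under 0.05, 70 genes called by DESeq2 and 2 by limma voom. Leaving out 1 library gave up to 40 calls, without elf18 RNA replicate 1. CAND1 had a log2 ratio of 0.16 (SE 0.39) with elf18 and 2.00 (SE 0.36) in mock, and the difference of -1.83 (SE 0.53) was not called (adjusted p = 1.00). LHCB1.5 had -2.70 (SE 0.11) with elf18 and -1.94 (SE 0.07) in mock, a difference of -0.75 (SE 0.15) that was not called either (adjusted p = 0.893). The antenna list had a median of -1.16 with elf18 and -1.11 in mock, and the remodelling ATPases had 0.729 with elf18 and 1.25 in mock.

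**Figure D5:**
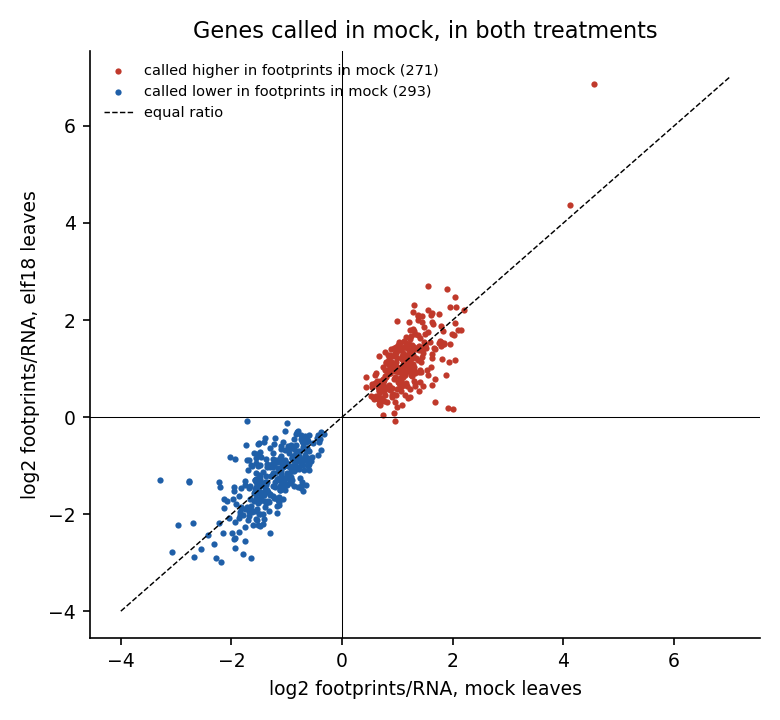
Log2 footprint to RNA ratio with elf18 (vertical) against mock (horizontal) for the 271 genes called higher (red) and the 293 called lower (blue) in mock; the dashed line marks equal ratios. All but 1 gene lie in the upper right or lower left part.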

How the data were processed

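The authors deposited raw counts of reads, without normalisation, in a table over coding sequences (8 libraries) and one over exons (4 RNA libraries). Their notes to GEO, that is the submitters' processing notes, name CASAVA 1.8.2, Bowtie2 2.0, HTSeq and genome build TAIR10. Adapter trimming, depletion of ribosomal RNA, strand and the treatment of reads that match several places are not stated in the labels, and they can move the values of gene copies and overlapping genes. Of 27172 loci, 62 with blank footprint cells were left out; 26685 had an entry and 10371 a symbol in the RefSeq locus table (TAIR10.1), used for names and neighbours only. More counts over the coding sequence than over exons were found for 56 genes.

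The fits were made with edgeR 4.0.16 under R 4.3.3 (TMM, filterByExpr with a minimum of 10 counts, glmQLFit, glmQLFTest) and tested on simulated data; limma 3.58.1 and DESeq2 1.42.0 served as alternatives. Ratios of single lysates used log2 CPM with 0.5 added to each count, and correlations between libraries used log2(CPM + 0.5). Those of summed copies were taken from plain CPM. An SE is the log2 ratio over the root of its F statistic. A call is a Benjamini-Hochberg adjusted p under 0.05. The mock fit used 4 libraries without a block (2 residual degrees of freedom), the difference of ratios 8 (4 residual degrees of freedom). Per the labels' protocols each lysate gave both libraries, so sample numbers pair them; libraries of the same lysate deviated from their groups with r = -0.0117.

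The members and the 44 lists (1545 loci, 984 tested) were chosen with earlier results of these data known, and some lists after their values here; 57 listed loci without a name or entry were dropped. Named genes were EFR, TBF1 and RBCS1A, the 12 highest and 12 lowest calls at 10 CPM or more on average without overlap, and up to 3 called members per direction of each list, or its most abundant member where none was called; other list members were named after their values were seen. For depth, 3 counts were 0.631 and 0.447 CPM in the footprint libraries and 0.246 and 0.468 CPM in the RNA libraries. Chi-square per degree of freedom between replicates was 29.8 for footprints and 13.0 for RNA, so spread beyond counting limited precision.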

Additional observations from a re-analysis of the deposited data

How the results depend on the processing

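No gene called in mock was called in the opposite direction under any alternative run. Among genes that lost the call, only the named ones were compared for sign, and none of these changed it. Uncalled values did change sign, such as LHY (0.17, and -0.02 without footprint replicate 2) and PAC1 (0.13, and -0.14 without footprint replicate 1). The lysate pairing as a replicate block gave 576 higher and 680 lower genes in mock (271 and 293 without the block), 499 and 509 with elf18 (189 and 249 without) and 6 differences of ratio (0 without). No low-count filter gave 683 and 676 in mock, 563 and 565 with elf18, and 8 differences; DESeq2 gave 1058 and 952, 1216 and 1063, and 70; limma voom gave 812 and 691, 440 and 376, and 2. More genes were lower than higher in mock, and more higher than lower by DESeq2, limma voom and with no filter. Fewer mock calls came with a mean of at least 50 counts (185 and 220), RLE factors (225 and 304), upper quartile factors (220 and 308) and the spread of all 8 libraries (252 and 302), which gave 477 and 433 with elf18. Leaving out 1 library at a time gave 128 to 2008 higher and 163 to 3939 lower in mock, 50 to 1023 higher and 128 to 630 lower with elf18, and 0 to 40 differences; an arm left with 1 library is assumed to vary like the others. The gap in RNA share outside coding sequences, lower minus higher genes, was 7.93 points, and 7.75 to 8.47 in single lysates. Of 88 called named genes 53 were called under every alternative and 35 lost the call in at least 1, most often without RNA replicate 1 (28) or RNA replicate 2 (21). The cause of these shifts was not tested. Leaving out near-identical copies and classes by protein length were not run, as no protein table was used here. At this depth no gene under 30 CPM was called.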
